A study of Mus musculus with 43 samples.

Results

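The comparison set colonoids cultured with 8 µM regorafenib (R8) against colonoids of the same lines cultured with 1 µM 5-FU, in 6 libraries of the 43 in the series. A gene was kept when its value reached 200 CP20M in at least 2 of these 6 libraries, where CP20M is the number of reads per gene scaled to 20000000 per library. This left 10509 of the 52636 genes in the table, of which 192 reached the minimum in R8 libraries only and 368 in 5-FU libraries only. For these genes the filter favoured the drug in which they were high. Among the genes named below they include Rragd, Cd68, Flt4, Sox11 and Abcg2 for R8. For 5-FU they include Cdx1, Lgr5, Abca1, S100a7a and Cbs. Colonoids are organoids of normal colon epithelium. They were grown from 3 lines, M41, M40 and M1, each from an individual adult male mouse that carried Vil-cre/ERT2, a tamoxifen-inducible Cre under the Villin promoter, with wild-type Apc (Apc wt/wt), and that had received tamoxifen. The same 3 lines with vehicle (DMSO) served as the common reference (Ve). All libraries were taken after 6 days of culture in Matrigel, in medium with EGF, R-spondin 1, Noggin and Wnt3a. Values of single libraries are given in the order M41, M40, M1 throughout. The question was which differences belong to the kinase inhibitor and which the cytotoxic drug shares. The comparison held 1 dose of each drug, and against vehicle these doses changed 2666 genes (R8) and 106 genes (5-FU). A difference in kind between the drugs and a stronger exposure to R8 therefore cannot be told apart.

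Regorafenib blocks several kinases, among them receptors for VEGF, PDGF and FGF, KIT, RET and the RAF kinases that feed the ERK cascade. 5-FU is a pyrimidine analogue whose metabolites block thymidylate synthase and are built into RNA and DNA, and p53 target genes are its classical transcriptional readout. In the colon, stem cells at the crypt base give rise to dividing progenitors, which become absorptive colonocytes or mucus-making goblet cells. Organoid cultures hold these states side by side without stroma, so fewer cells of a type and less RNA per cell cannot be told apart in a bulk library.

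The 6 libraries held 4371789 to 18677792 reads, fewer with R8 (4371789 to 10139374) than with 5-FU (11517142 to 18677792), and R8 libraries had 9724 to 9852 genes at 200 CP20M or more against 9955 to 10148 with 5-FU. The part of depth in the results was not tested. All 14 colon epithelium markers passed the filter, and their summed level was 184667 to 221872 CP20M with R8 and 239733 to 312724 with 5-FU. None of 14 fibroblast and none of 8 endothelial markers passed the filter, with summed levels of 19 to 153 and 8 to 54 CP20M per library. Of 15 immune markers 3 passed, and the summed level was 1146 to 3670 CP20M with R8 and 1207 to 2288 with 5-FU. The first principal component of the 9 libraries (49.5% of the variance) placed R8 at 28.6 to 60.2, 5-FU at −25.7 to −8.09 and vehicle at −34.7 to −26.1.

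R8 and 5-FU differed in 1736 genes (16.5%) at an adjusted p under 0.05 and a difference of at least 1.5-fold. Of these, 756 were higher with R8 (7.19% of genes tested) and 980 were higher with 5-FU (9.33%). The difference had the same sign in all 3 lines for 1734 of them, and 59 and 125 genes differed at least 4-fold. Against vehicle, R8 changed 2666 genes (25.4%, with 12.4% higher and 12.9% lower), while 5-FU changed 106 (1.01%), of which 87 were higher (0.828%) and 19 lower (0.181%). These comparisons share libraries, so their values are given side by side only. The count fell without M41 or M40 and not without M1. Without M41, M40 or M1 in every group, 679, 79 and 1816 genes were called between the drugs. The same fits on 2 lines gave 13, 8 and 0 genes for 5-FU against vehicle. The difference was also widest in M41, where the median over the 756 genes was 1.29 on the log2 scale, against 0.79 in M40 and 0.77 in M1.

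**Figure D1:**
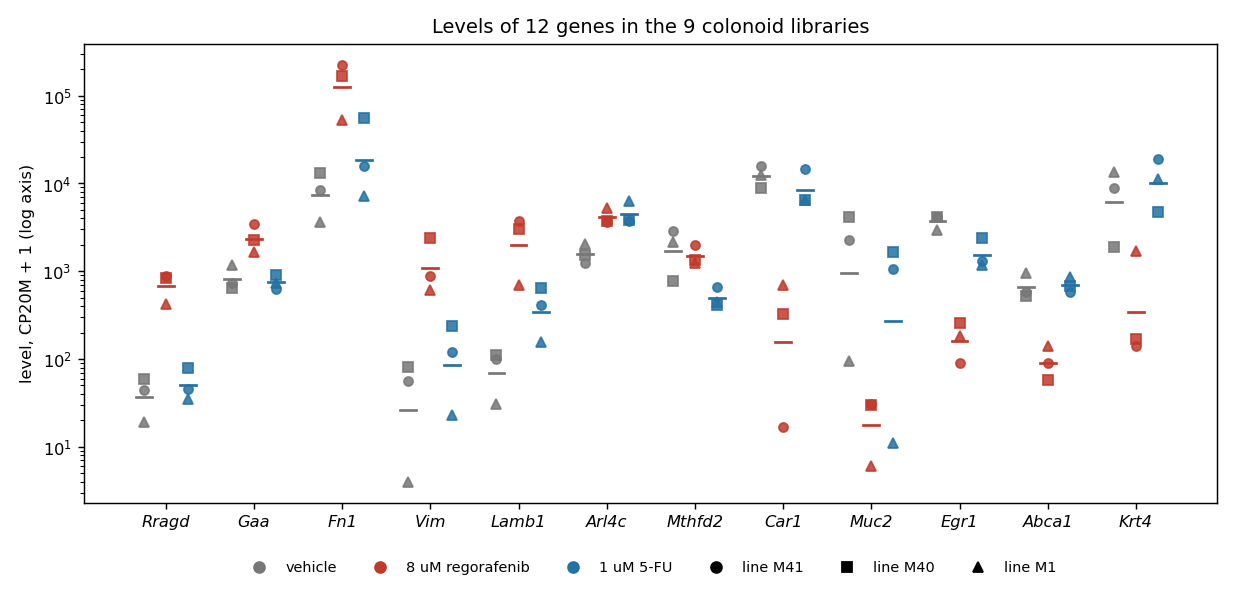
Levels of 12 genes in the 9 colonoid libraries, as CP20M + 1 on a log axis, with 1 symbol per library (colour, treatment; shape, line) and a bar at the geometric mean. Rragd, Gaa, Fn1, Vim and Lamb1 stand higher with regorafenib than with 5-FU in every line, Arl4c is above vehicle with both drugs, and Car1, Egr1, Abca1 and Krt4 are lowest with regorafenib.

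Lysosomal genes formed the group that was most uniformly higher with regorafenib and stayed near vehicle with 5-FU. Lysosomes break down proteins, lipids and glycans with acid hydrolases, and many of their genes carry the CLEAR element, a palindrome with the core CACGTG that is bound by TFEB and TFE3. Windows from 250 bases before to 50 bases after each start were read from RefSeq (GRCm38.p6) for 22 of the 29 lysosomal genes tested. No window was matched for the other 7. The letters CACGTG stood in 11 of the 22 genes, against 8.09% of all 27025 genes with a window and 12.6% of the 7789 tested genes with one. The longer palindrome TCACGTGA, which contains CACGTG, stood in 6 of them (27.3%), against 1.12% and 2.52%. Because both are palindromes, a match on one strand is a match on the other. These 6 stretches are shown because they carry the longer letters, in capitals, with 20 bases on either side of the first match, 5′ to 3′ on the gene's strand. A match describes the letters only.
Ctsa, chr2:164833740-164833787, plus strand: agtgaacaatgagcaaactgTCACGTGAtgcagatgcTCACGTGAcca
Ctsd, chr7:142387899-142387946, minus strand: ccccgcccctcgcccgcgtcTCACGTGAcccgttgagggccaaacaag
Mcoln1, chr8:3500453-3500500, plus strand: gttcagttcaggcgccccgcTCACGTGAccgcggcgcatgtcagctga
Atp6v1a, chr16:44139364-44139411, minus strand: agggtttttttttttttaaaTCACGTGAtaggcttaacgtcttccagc
Gla, chrX:134601206-134601253, minus strand: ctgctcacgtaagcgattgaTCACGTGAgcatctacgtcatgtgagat
Atp6v0d1, chr8:105566041-105566088, minus strand: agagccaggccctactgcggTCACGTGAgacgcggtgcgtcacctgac

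Of 29 lysosomal genes, 23 were higher with R8 than with 5-FU (79.3%, against 7.19% of all genes) and none was lower. The median log2 difference was 0.91, against −0.06 over all genes, and 24 of the 29 had R8 values wholly above the 5-FU values (15.7% of all genes). Against vehicle the same 29 genes had a median of 1.03 with R8, where 23 rose, and of 0.05 with 5-FU (−0.08 without M40), where limma called none (4 at an unadjusted p under 0.05). Gaa, the acid α-glucosidase, was at 3415, 2248 and 1670 CP20M with R8, at 631, 912 and 740 with 5-FU and at 735, 648 and 1178 with vehicle. R8 was above 5-FU by 1.61 ± 0.31 (SE) on the log2 scale (adjusted p = 0.0126). Hexa, a subunit of β-hexosaminidase, differed by 1.56 ± 0.18 and Gusb, β-glucuronidase, by 1.38 ± 0.15. Ctsb, the protease cathepsin B, was at 16822, 12770 and 12467 CP20M with R8 against 4241, 6713 and 5060 with 5-FU. Of the genes whose sequence is shown, Ctsa, Ctsd, Mcoln1 (the lysosomal calcium channel TRPML1), Atp6v1a (a proton pump subunit) and Gla were higher by 0.62 to 1.24. Atp6v0d1 differed by 0.10 ± 0.16 (adjusted p = 0.661).

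Rragd, which encodes the RagD GTPase that docks mTORC1 on lysosomes, had the fourth largest rise among called genes with a symbol that moved alike in all 3 lines. It was at 878, 840 and 426 CP20M with R8, at 44, 79 and 34 with 5-FU and at 43, 59 and 18 with vehicle. The groups did not overlap, and the difference of 3.33 ± 0.22 was 10.0-fold (adjusted p = 0.000693). Cd68, a lysosomal membrane glycoprotein used as a macrophage marker, was at 2659, 821 and 211 CP20M with R8 against 80, 32 and 96 with 5-FU. Rragd and Cd68 passed the filter through R8 libraries only. Of the 3 immune markers tested, Cd68 was higher with R8 and Cd14 lower (−1.34), 33.3% each, against 7.19% and 9.33% of all genes. The third, Csf1r, was not called (0.34). Ptprc (CD45), which marks all leukocytes, was at 0 to 7 CP20M in the 9 libraries. The 29 autophagy genes tested were mixed, with 2 higher (6.9%) and 6 lower (20.7%) with R8, against 7.19% and 9.33% of all genes. The higher ones were Optn and Uvrag, and the lower ones included Atg9b (−1.19 ± 0.18), Atg13 (−0.95 ± 0.12) and Map1lc3b (−0.74 ± 0.17). On leaving out M41, M40 or M1, 9, 0 and 21 lysosomal genes were called, with medians of 0.71, 1.09 and 0.98, and 3, 0 and 6 autophagy genes were lower.

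**Figure D2:**
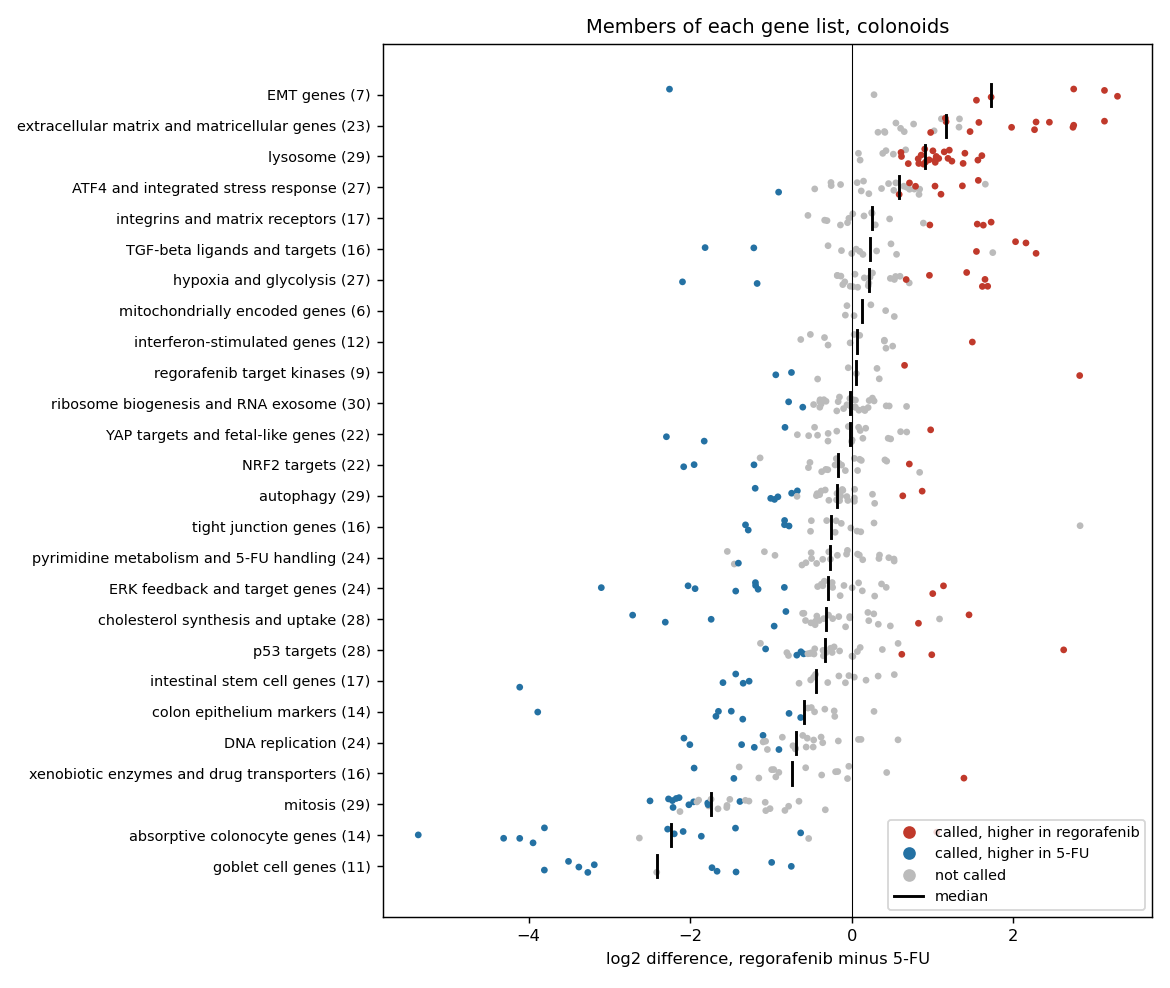
Log2 difference of R8 minus 5-FU for every tested member of each gene list with at least 5 members tested (number in brackets), with red for genes called higher with R8, blue for genes called higher with 5-FU, grey for the rest and a bar at the median. Lysosomal genes lie to the right, at a median of 0.91, and most goblet and absorptive genes to the left, where 7 of 11 and 5 of 14 passed the filter through 5-FU libraries only.

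Among genes of the extracellular matrix, those that differed between the drugs were higher with regorafenib. Epithelial cells of the colon build their basement membrane from laminins and type IV collagens and bind it through integrins. Of 37 listed matrix genes 23 passed the filter, 3 of them through R8 libraries only. Of the 23, 12 were higher with R8 than with 5-FU (52.2%, against 7.19% of all genes) and none was lower (9.33% of all genes). Against vehicle 22 of the 23 rose with R8 (median 1.93), where 12.4% of all genes rose. With 5-FU 20 lay above vehicle (median 0.74) and Lamb1 alone was called, a call lost without any 1 of the lines. Fn1, which encodes fibronectin, was at 224457, 165618 and 52413 CP20M with R8, at 15862, 55584 and 7245 with 5-FU and at 8367, 13095 and 3683 with vehicle. R8 was 6.72-fold above 5-FU (2.75 ± 0.37, adjusted p = 0.00415), although the lowest R8 library, M1, was below the 5-FU library of M40. Fn1 overlaps Apol7d on the other strand, as do Ctsb and Fdft1, Hexa and Tmem202, Atg9b and Nos3, and Braf and Ndufb2. The strand setting of the counting is not given in the sources used here, so reads of such pairs could not be told apart.

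Lamb1, the laminin β1 chain, stepped up over the 3 conditions, from 98, 111 and 30 CP20M with vehicle to 416, 640 and 155 with 5-FU and 3717, 3061 and 691 with R8. The 5-FU difference from vehicle was 2.01 ± 0.24 (adjusted p = 0.0316) and R8 was a further 2.45 ± 0.24 above 5-FU (adjusted p = 0.00171). The type IV collagen genes Col4a3, Col4a4 and Col4a5 rose with R8 and were within 0.08 of vehicle with 5-FU on the log2 scale. Col4a3 was at 1227, 629 and 316 CP20M with R8 and at 60, 11 and 22 with 5-FU, a difference of 3.78 ± 0.30, and vehicle was at 52, 14 and 16. Col4a4 differed by 3.51 ± 0.44, Col4a5 by 2.74 ± 0.22 and the peroxidasin gene Pxdn, whose product crosslinks type IV collagen, by 2.96 ± 0.33. For Spp1, osteopontin, the values were 8090, 16446 and 38428 CP20M with R8 and 15419, 4435 and 32054 with 5-FU, which overlapped (0.41 ± 0.49, adjusted p = 0.568).

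Of 17 genes in an epithelial to mesenchymal transition list 7 passed the filter, 2 of them through R8 libraries only and 1 through 5-FU libraries only. The transcription factors Snai1, Snai2, Twist1, Twist2, Zeb1 and Zeb2 did not pass it, at 0 to 50 CP20M with either drug. Of the 7, 5 were higher with R8 (71.4%, against 7.19% of all genes), among them Vim, Fn1, Itga5 and Tnc. S100a4 alone was lower (14.3%, against 9.33% of all genes). Vim, the intermediate filament vimentin, was at 880, 2416 and 614 CP20M with R8, at 119, 234 and 22 with 5-FU and at 55, 80 and 3 with vehicle, with no overlap (3.29 ± 0.27, 9.79-fold, adjusted p = 0.00117). S100a4 was at 36, 31 and 65 with R8 against 667, 216 and 143 with 5-FU. Cdh1, E-cadherin, did not pass the test (0.28 ± 0.27, adjusted p = 0.485). Integrin and matrix receptor genes Itga5, Gpc1, Itgb5 and Itgav were higher, 4 of 17 tested (23.5%, against 7.19% of all genes). Without M41, M40 or M1, 2, 1 and 4 were higher, and the list median went from 0.25 to −0.03 without M41. Thbs1, a secreted thrombospondin, was at 21905, 10815 and 5380 CP20M with R8 and 3265, 3809 and 3840 with 5-FU (1.57 ± 0.41, adjusted p = 0.0317). Tnc, tenascin C, and the adhesion gene Mcam were highest in M41, at 2977 and 7173 CP20M with R8, and differed by 3.13 ± 0.62 and 2.92 ± 0.82. The matrix count was 5, 2 and 16 genes without M41, M40 or M1, and that of the transition list 3, 2 and 4.

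The largest rise among called genes with a symbol was Sox11, a transcription factor of fetal tissues, at 912, 1022 and 220 CP20M with R8 against 6, 14 and 5 with 5-FU and 13, 5 and 2 with vehicle (4.46 ± 0.44, adjusted p = 0.00175). Gdf15, a stress-induced cytokine, was at 9192, 4831 and 5261 CP20M with R8 and at 1716, 423 and 1288 with 5-FU, where vehicle was at 1827, 325 and 1803. The difference was 2.63 ± 0.36. Among the 12 largest rises were also Serpinb9b, a protease inhibitor gene (2.94 ± 0.38), Ndrg4 (2.96 ± 0.43) and Nckap5 (3.08 ± 0.44).

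Genes of differentiated epithelium that were called were nearly all lower with regorafenib than with 5-FU. Of 30 listed absorptive colonocyte genes 14 passed the filter, 5 of them through 5-FU libraries only, so the filter favoured genes that were higher with 5-FU. Of the 14, 11 were lower with R8 (78.6%, against 9.33% of all genes). The phosphate transporter gene Slc20a1 was higher (7.14%, against 7.19% of all genes). Against vehicle 11 fell with R8 (median −3.13), where 12.9% of all genes fell. With 5-FU none was called by limma (5 at an unadjusted p under 0.05, median −0.79, which was −0.27 without M1). Car1, carbonic anhydrase 1, was at 16, 326 and 696 CP20M with R8, at 14422, 6551 and 6559 with 5-FU and at 15957, 8991 and 12531 with vehicle. R8 was 41.2-fold below 5-FU on the scale with the pseudocount of 20 CP20M (−5.37 ± 0.93, adjusted p = 0.00867). Dmbt1, a secreted mucosal glycoprotein, was at 0, 3 and 33 CP20M with R8 against 541, 885 and 353 with 5-FU (−4.31 ± 0.47). Isx, the intestine-specific homeobox gene, differed by −3.94 ± 0.29 and Aoc1, diamine oxidase, by −3.80 ± 0.66. The water channel gene Aqp4, which the paper names as a stem cell marker, differed by −4.11 ± 0.32. The count of absorptive genes was 5, 4 and 12 without M41, M40 or M1, and 7 without the line as a block.

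Of 20 listed goblet cell genes 11 passed the filter, 7 of them through 5-FU libraries only, and 10 of the 11 were lower with R8 (90.9%, against 9.33% of all genes). The median over the 11 was −4.26 in M41, −3.39 in M40 and −0.63 in M1, and it describes genes that the filter favoured where 5-FU was higher. Muc2, the gel-forming mucin, was at 2267, 4154 and 93 CP20M with vehicle, at 1072, 1644 and 10 with 5-FU and at 30, 29 and 5 with R8, so that M1 was lowest under every condition. R8 and 5-FU overlapped, and the difference was −3.27 ± 0.84 (adjusted p = 0.0305). Clca1, a secreted goblet cell protein, was at 6, 3 and 0 CP20M with R8 and at 534, 1571 and 17 with 5-FU. Tff3, trefoil factor 3, differed by −3.50 ± 0.99 and the membrane mucin gene Muc13 by −3.38 ± 0.51. With 5-FU 10 of the 11 genes lay below vehicle (median −0.95), with none called by limma and 4 at an unadjusted p under 0.05. In fits without M41, M40 or M1, 2, 0 and 11 goblet genes were called, and without the block 1.

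Cdx1, a homeobox transcription factor of the intestine, was at 22, 113 and 42 CP20M with R8, at 1204, 1771 and 490 with 5-FU and at 2207, 3262 and 1484 with vehicle (−3.89 ± 0.31, adjusted p = 0.00115). Hnf4a and Cdx2, also transcription factors of this epithelium, differed by −1.65 ± 0.19 and −1.49 ± 0.28. Of the 14 epithelium markers 7 were lower, 7 were not called and none was higher, where 9.33% of all genes were lower and 7.19% higher. The general markers Epcam (−0.33), Krt8 (−0.22) and Krt18 (−0.21) were not called. Of 17 stem cell genes tested 5 were lower with R8 (29.4%, against 9.33% of all genes), and 2 of the 17 passed the filter through 5-FU libraries only. Lgr5, the receptor that marks crypt base stem cells, was both lower and 1 of these 2. It was at 70, 148 and 133 CP20M with R8 against 176, 512 and 589 with 5-FU (−1.59 ± 0.22, adjusted p = 0.00435). The 5-FU values of Lgr5 were close to those of vehicle, 146, 500 and 561. The largest fall in the stem cell list was that of Aqp4 (−4.11). Axin2, a Wnt target, was not called (−0.30). Without M40, 1 epithelium marker and 2 stem cell genes were called.

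The largest falls also held keratin, retinoid and receptor genes, for which 5-FU did not pass the test against vehicle. Krt4, a keratin of stratified epithelia, was at 139, 168 and 1684 CP20M with R8, at 19212, 4751 and 11156 with 5-FU and at 8783, 1904 and 13567 with vehicle (−4.77 ± 0.66). S100a7a was at 16, 99 and 65 with R8, 1831, 962 and 708 with 5-FU and 322, 222 and 103 with vehicle. Its 5-FU values were above vehicle in every line, without passing the test (2.34, adjusted p = 0.0767), and R8 differed from 5-FU by −3.94 ± 0.52. Dhrs3, a retinal reductase induced by retinoic acid, differed by −4.08 ± 0.34, Gabrp, a GABA receptor subunit, by −4.19 ± 0.27 and Krt90 by −3.71 ± 0.54.

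**Figure D3:**
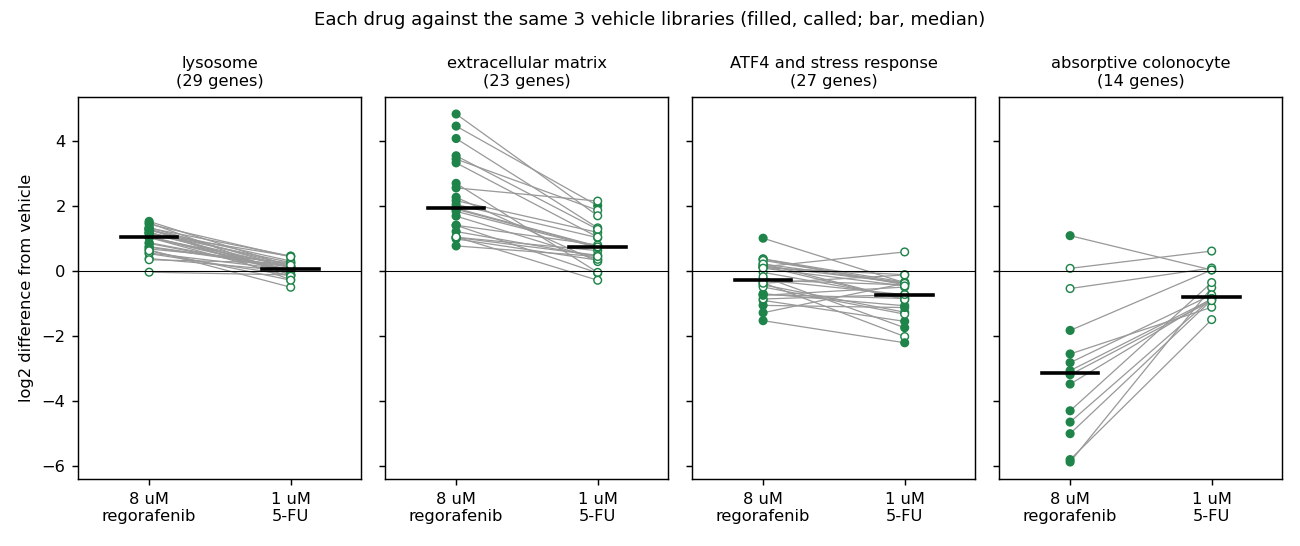
Log2 difference from the same 3 vehicle libraries for R8 (left) and 5-FU (right) in each panel, with 1 line per gene, filled points for genes called and a bar at the median. Lysosomal genes go from a median of 1.03 with R8 to 0.05 with 5-FU and absorptive genes from −3.13 to −0.79, while the ATF4 list lies lower with 5-FU (−0.72) than with R8 (−0.27).

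Target and feedback genes of the ERK cascade were divided. Egr1 and Fos, immediate early genes switched on by ERK, were lower with R8 than with 5-FU in every line. Egr1 was at 89, 256 and 183 CP20M with R8, at 1292, 2405 and 1187 with 5-FU and at 4146, 4183 and 2958 with vehicle (−3.10 ± 0.27, adjusted p = 0.0012). Fos differed by −2.02 ± 0.18. Over the list of 24, 8 were lower (33.3%, against 9.33% of all genes) and 2 higher (8.33%, against 7.19%). The lower ones included Il1rn (−1.94), the growth regulator Myc (−1.44 ± 0.18) and Dusp6, the ERK phosphatase (−1.19 ± 0.28, adjusted p = 0.0244). The feedback genes Spry4 (0.28 ± 0.19) and Etv4 (−0.23 ± 0.25) were not called, and Etv5 and Dusp4 were higher by 1.14 and 1.00. The 8 became 7, 2 and 8 without M41, M40 or M1.

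Of 20 listed kinases that regorafenib targets, 9 passed the filter, 1 of them (Flt4) through R8 libraries only, and 8 were under 20 CP20M in all 9 libraries. Ret, which did not pass, was at 152, 209 and 28 CP20M with R8 and at 20, 133 and 7 with 5-FU, and Kdr, the VEGF receptor 2, was at 0 to 4 CP20M. Flt4, VEGF receptor 3, was at 803, 437 and 399 CP20M with R8, at 30, 49 and 109 with 5-FU and at 31, 22 and 42 with vehicle (2.82 ± 0.40, adjusted p = 0.0047). Braf was higher by 0.66 ± 0.18 (adjusted p = 0.0382). Fgfr2 differed by −0.94 ± 0.20 and Mapk11, p38β, by −0.74 ± 0.14. Of the 9 tested, 2 were thus higher and 2 lower (22.2% each, against 7.19% and 9.33% of all genes). Without M40 none of the 4 was called.

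A share of cell cycle genes was lower with R8 than with 5-FU, while few were called against vehicle. Of 29 mitosis genes 11 were lower (37.9%, against 9.33% of all genes, median −1.74). R8 values lay wholly below the 5-FU values for 28 (21.2% of all genes), but 16 of the 29 passed the filter through 5-FU libraries only. Mki67, the proliferation marker Ki-67, was at 287, 543 and 485 CP20M with R8, at 1496, 2429 and 935 with 5-FU and at 592, 4532 and 926 with vehicle (−1.78 ± 0.44, adjusted p = 0.027). For this gene the M40 vehicle library was the highest of the 9. Kif11, a spindle motor, differed by −2.50 ± 0.53. Against vehicle 3 mitosis genes fell with R8 (median −0.98), where 12.9% of all genes fell. With 5-FU limma called none at either an adjusted or an unadjusted p under 0.05 (median 0.62, which was 0.04 without M41 and 1.31 without M40). Of 24 DNA replication genes 6 were lower with R8 than with 5-FU, where 9.33% of all genes were lower. Of the 24, 2 passed the filter through 5-FU libraries only. The 6 became 2, 0 and 5 without M41, M40 or M1. The count of mitosis genes was 0, 0 and 14 without M41, M40 or M1, with medians of −1.36, −1.61 and −2.13, and 4 without the block.

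Few genes of pyrimidine metabolism differed in RNA level between the drugs. Of 24 pyrimidine and 5-FU handling genes, 1 was lower with R8 than with 5-FU (4.17%, against 9.33% of all genes) and none was higher. For 5-FU against vehicle limma called none of the 24 (median 0.195). Tyms, the enzyme that 5-FU blocks, was at 162, 207 and 334 CP20M with R8, at 629, 446 and 328 with 5-FU and at 519, 724 and 468 with vehicle. It fell with R8 against vehicle (−1.25 ± 0.32, adjusted p = 0.0206), and its difference between the drugs did not pass (−0.95 ± 0.32, adjusted p = 0.0698). Umps, which activates 5-FU, differed by −0.18 ± 0.16, and Tk1 by −1.45 ± 0.49 (adjusted p = 0.0669). Dpyd, which degrades 5-FU, and Upp1 did not pass the filter and stood at 0 to 14 and 53 to 110 CP20M.

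Of 28 p53 targets, 27 lay above vehicle with 5-FU (median 0.57) but limma called none at an adjusted p under 0.05, with 20 at an unadjusted p under 0.05. With R8 9 of the 28 were called higher than vehicle and 0 lower (median 0.39), where 12.4% of all genes rose and 12.9% fell. Mdm2, the ubiquitin ligase of p53, was at 7195, 3916 and 7586 CP20M with 5-FU, at 4006, 2874 and 3801 with vehicle and at 4815, 4375 and 4845 with R8. Both drugs gave values above vehicle in every line, by 0.76 with 5-FU (adjusted p = 0.0699), and the drugs differed by −0.35 ± 0.16 (adjusted p = 0.151). Cdkn1a, the cell cycle inhibitor p21, was at 7405, 5170 and 10747 with 5-FU and 4965, 4743 and 5065 with R8 (−0.59 ± 0.18, adjusted p = 0.0469), and lost the call in 12 of 15 alternative fits. Between the drugs 3 p53 targets were higher with R8, led by Gdf15, and 4 were lower. These were 10.7% and 14.3% of the 28, near the 7.19% and 9.33% of all genes. In fits without M41, M40 or M1 these were 1, 1 and 3 higher and 0, 0 and 1 lower.

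Some ATF4 targets fell with both drugs. In the list of ATF4 targets, which covers amino acid synthesis and the stress response, 26 of 27 lay below vehicle with 5-FU (median −0.72). Chac1, Mthfd2, Psat1 and Slc6a9 fell, where 0.181% of all genes did. With R8 1 rose and 6 fell against vehicle (median −0.27), where 12.4% of all genes rose and 12.9% fell. The 6 included Chac1 (−1.53), Psat1 (−0.90) and Slc6a9 (−1.06). For these 3 the difference between the drugs did not pass, with adjusted p of 0.182, 0.0863 and 0.811. Mthfd2, a mitochondrial folate enzyme, was at 655, 411 and 441 CP20M with 5-FU, at 2868, 782 and 2162 with vehicle and at 1993, 1349 and 1249 with R8. R8 was above 5-FU by 1.57 ± 0.28 (adjusted p = 0.00994). The serine synthesis genes Phgdh and Psph were higher with R8 by 1.37 ± 0.22 and 1.03 ± 0.26, and Aldh18a1, of proline synthesis, by 1.11 ± 0.28. In all 7 of 27 were higher with R8 than with 5-FU (25.9%, against 7.19% of all genes) and Wars was lower (3.7%, against 9.33%). The 7 became 1, 2 and 5 without M41, M40 or M1. The 4 genes called for 5-FU against vehicle became 0, 4 and 0, and 0 without the block.

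The genes called for 5-FU against vehicle held members with and without a difference between the drugs, and those named here were chosen after their values were seen. Cbs, a transsulfuration enzyme, was at 570, 239 and 1168 CP20M with 5-FU against 116, 75 and 215 with vehicle and 107, 111 and 124 with R8. Its differences were 1.97 from vehicle with 5-FU (adjusted p = 0.0474) and −0.11 with R8. Klhdc7a was higher with 5-FU by 1.42 (adjusted p = 0.0079), against 0.07 with R8. By contrast Arl4c, a small GTPase, was at 3757, 3792 and 6378 CP20M with 5-FU and at 3620, 3738 and 5266 with R8, where vehicle was at 1251, 1515 and 2037. The drugs differed by −0.12 ± 0.11 (adjusted p = 0.468). Amotl1, an angiomotin, was higher by 1.45 with each drug and differed between them by 0.0007 ± 0.16, and Inhba, an activin subunit, was higher by 1.81 with 5-FU and 2.37 with R8. Mycn rose with 5-FU by 2.26 and with R8 by 3.03. Without the block 5 genes were called for 5-FU against vehicle.

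Cholesterol and glucose related genes gave a few large differences. Abca1 and Abcg1, which export sterols, were at 89, 56 and 138 CP20M and at 608, 256 and 545 with R8, against 579, 671 and 868 and 1551, 1262 and 1789 with 5-FU. They differed by −2.71 ± 0.17 (adjusted p = 0.000659) and −1.74 ± 0.19, while 5-FU was within 0.07 of vehicle. Gramd1a, a sterol transfer protein of the endoplasmic reticulum, was at 1174, 656 and 938 CP20M with R8, at 332, 225 and 417 with 5-FU and at 249, 139 and 239 with vehicle (1.45 ± 0.15, adjusted p = 0.0022). Over the list of 28, 2 were higher (7.14%, against 7.19% of all genes) and 5 lower (17.9%, against 9.33%). Txnip, which restrains glucose uptake, differed by −2.09 ± 0.19, and the collagen prolyl hydroxylase genes P4ha1 and P4ha2 were higher by 1.68 ± 0.28 and 1.62 ± 0.25. Glycolytic enzymes such as Pkm (0.04) and Ldha (−0.18) were not called. Of 27 hypoxia and glycolysis genes 6 were higher (22.2%, against 7.19% of all genes) and 2 lower (7.41%, against 9.33%). Without M40 1 of these 8 and 1 of the 7 cholesterol genes was called.

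Lists with few calls included ribosome biogenesis (2 of 30 lower, 6.67% against 9.33% of all genes) and interferon-stimulated genes (Bst2 alone higher of 12 tested, of 31 listed, 8.33% against 7.19%). Of the 6 mitochondrially encoded genes tested limma called none, and none was at an unadjusted p under 0.05. The untested interferon-stimulated genes went both ways. Oasl1 was at 4, 0 and 10 CP20M with R8 against 86, 153 and 127 with 5-FU and 386, 195 and 771 with vehicle. Ifit2 was at 127, 217 and 110 CP20M with R8 against 39, 34 and 64 with 5-FU and 13, 49 and 90 with vehicle. Among drug transporters and xenobiotic enzymes Abcg2, the efflux pump BCRP, was at 214, 207 and 188 CP20M with R8, at 65, 68 and 62 with 5-FU and at 46, 33 and 35 with vehicle (1.39 ± 0.22, adjusted p = 0.00706). Abcg2 passed the filter through R8 libraries only. The glutathione transferase genes Gstm1 and Gstm2 differed by −1.95 and −2.08. Tight junction genes were lower in 5 of 16 (31.2%, against 9.33% of all genes), among them Ocln. TGF-β genes were higher in 4 of 16, where 7.19% of all genes were higher, and lower in 2 (12.5%, against 9.33%). Of these 16 genes 3 passed through R8 libraries only. YAP and fetal-like genes were higher in 1 of 22 (Ctgf, 4.55%, against 7.19%) and lower in 3 (13.6%, against 9.33%). Clu, Ly6a and Anxa1 were not called. Without M40 no tight junction or TGF-β gene was called and 2 YAP genes were lower, and without M41 1 TGF-β gene was higher and 1 lower.

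Tumoroids, in which tamoxifen had deleted Apc, gave a test of the same contrast in separate libraries. The lines were F11, M3 and M14, and the titles of their 5-FU libraries say colonoid, so these were placed by the genotype label. Of the same 10509 genes 429 were called (4.08%), 199 higher with R8 (1.89%) and 230 higher with 5-FU (2.19%). The 756 genes higher with R8 in colonoids had the same sign in tumoroids for 98.0%, where 53.3% of all genes had that sign, and the 980 lower ones for 94.4%, against 46.7%. Of the colonoid calls 19.8% and 17.1% were also called in tumoroids, and none was called in the opposite direction. Of the tumoroid calls 75.4% and 73.0% were called in colonoids. The tumoroid count was 1066, 20 and 1 without F11, M3 or M14.

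Rragd differed by 3.46 in tumoroids (adjusted p = 0.00871), Vim by 3.26, Fn1 by 2.28, Gramd1a by 1.53, Gdf15 by 2.53 and Egr1 by −2.74 (adjusted p = 0.00824). Car1, Isx and Dmbt1 differed by −3.74, −3.88 and −3.99. Lysosomal genes had a median of 0.60 in tumoroids, with 8 of 29 higher (1.89% of all genes) and none lower, and 27 above 0. The matrix list had a median of 0.16 with 2 of 23 higher (1.89% of all genes), and Tnc differed by 0.02. The integrin and matrix receptor list leaned the other way than in colonoids, with a median of −0.26. Of its 17 genes 1 was higher (1.89% of all genes) and 4 were lower (2.19% of all genes). Goblet genes were lower in 2 of 11 (2.19% of all genes). The mitosis list had a median of 0.06, and its median was −1.81 in F11, 1.01 in M3 and 0.83 in M14. A test of the difference between the genotypes across all 18 libraries (limma) called no gene (0.0% of genes), with 855 at an unadjusted p under 0.05, and 8 were called without line M1. The smallest p-values were those of Car9, Tgm1, Mgam2-ps, Bmp3, Fam111a and Galnt6, with adjusted p from 0.102 to 0.244. Car9, a hypoxia-induced carbonic anhydrase, differed by 0.16 in colonoids and −1.71 in tumoroids.

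**Figure D4:**
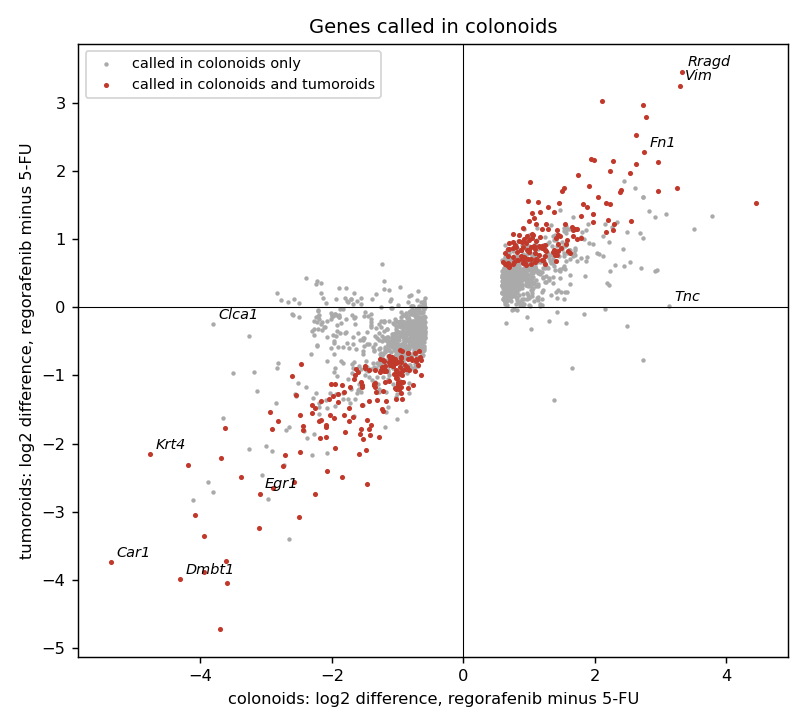
Log2 difference of R8 minus 5-FU in tumoroids against that in colonoids for the 1736 genes called in colonoids, in red where also called in tumoroids. Most points lie in the upper right and lower left, with Rragd, Vim and Fn1 high and Car1 and Dmbt1 low in both, while Tnc and Clca1 lie near 0 in tumoroids.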

How the data were processed

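Bulk RNA sequencing signal values per gene and library (CP20M) were used as deposited by the authors, who trimmed reads with Trimmomatic 0.36, aligned them with STAR 2.5.3a to GRCm38, counted them per gene (Ensembl 90) with HTSeq 0.9.1 and scaled each library to 20000000. The values had been rounded up and are not per length. Sources disagree on the library kit. A pseudocount of 20 CP20M (1 CPM) was added before the log2 transform, and limma 3.58.1 was run in R 4.3.3 with a mean trend. The 9 colonoid libraries (Ve, R8, 5-FU) were fitted with the line as a block, and p-values were adjusted by Benjamini-Hochberg over 10509 genes. Libraries of a line came from the same mouse, and their deviations from the group means correlated at 0.122, 0.773 and 0.404 between R8 and 5-FU. Whole reads were recovered from the rounding steps (99.7% to 99.9% of values whole) for depth, edgeR 4.0.16 and DESeq2 1.42.0. On simulated data for R8 against 5-FU over 10509 genes, the fit recovered 38%, 92% and 100% of genes changed 1.5-fold, 2-fold and 4-fold, with 7 of 172 calls false. The simulation used a fixed dispersion and no differences between lines. These shares therefore do not give the power of the fit on the real libraries, where lines differed. Members and gene lists were chosen with earlier results of these data known. Named genes were the 12 largest rises and falls with a symbol, up to 4 called members per list, a fixed set and the 6 smallest interaction p-values, and other list members named were chosen after their values were seen. The fibroblast table was not used. The study describes no removal of duplicate reads by molecular identifiers, so depth covers counting error only. Some genes that these rules select are not reported here.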

Additional observations from a re-analysis of the deposited data

How the results depend on the processing

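R8 against 5-FU gave 1736 genes. No replicate block, the unpaired form, gave 1245, of which 1244 were among the 1736. A fit on 12 colonoid libraries, which added those with 4 µM regorafenib (1 of 512592 reads), gave 586 with the block. Leaving out 1 line gave 79 to 1816 genes, and for R8 against vehicle (2666) 1131 to 3051. The other settings (6 or 24 libraries, pseudocounts of 2 and 100, filters, TMM scaling, equal medians, edgeR with 1819 and DESeq2 with 2111 genes) stayed within 1.5 times. TMM scaling split the calls into 899 higher and 860 lower, against 756 and 980. The settings included a filter of 20 CP20M, with 2374 of 15163 genes. No call among the 125 named genes reversed. Without M40 91 of them lost the call, without M41 46, without the block 21. For 5-FU against vehicle (106 genes) the unpaired fit gave 5, a pseudocount of 100 CP20M 63, and leaving out 1 line 0 to 13. In tumoroids (429) the unpaired fit gave 46 and leaving out 1 line 1 to 1066. The difference between genotypes (0 genes) gave 0 in the unpaired fit and 0 to 8 on leaving out 1 line. Fits on 2 lines have few degrees of freedom. Depth limits genes near 20 CP20M, since 1 read was worth up to 4.57 CP20M (M1 with R8).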
